A study of Rattus norvegicus with 52 samples.

Results

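Ndrg1, Hif1a, Vegfa, Bnip3, Egln3, Slc2a1, Adm and Ldha, a group of genes linked to the response to low oxygen, were followed in the kidneys of 26 male rats. The members were taken by gene symbol, 8 of the 13811 genes that the platform annotation names with a single symbol. All probe sets that the arrays carry for them were kept, 11 of the 31042 measured. The set was chosen by measured values as far as Ndrg1 goes: Ndrg1 was selected on its log2 signals in these same rats, and the comparison used is not stated, so its values are given as a description with no test. The other members belong to the same pathway, and the whole set was put together with earlier results of these data known, so their tests are not free of selection either.

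Low oxygen is sensed through hypoxia-inducible factor (HIF), a pair of proteins whose alpha subunit is made all the time and destroyed when oxygen is plentiful. Prolyl hydroxylases mark the alpha subunit for destruction, and when oxygen falls the subunit accumulates, pairs with ARNT and switches on target genes. The kidney works with steep oxygen gradients between cortex and medulla, and sodium reabsorption accounts for much of its oxygen use. Since HIF-alpha is controlled mainly as a protein, its messenger RNA is not a readout of HIF activity.

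The rats were of 3 strains. ET3x2 and ET3x1 are congenic strains in which R-strain DNA, from rats bred to resist salt, replaces a stretch of 1 chromosome on the S background, so all 3 strains share that background. S rats, labelled SS/jr, are the inbred Dahl salt-sensitive strain, which becomes hypertensive when fed salt. High-salt rats were moved at 39 to 41 days of age from the 0.4% NaCl diet they had been weaned onto, at 30 days, to a 4% NaCl diet for 24 hours, and low-salt rats stayed on 0.4% NaCl. Rats were 40 to 42 days old when the kidneys were taken. There were 4 ET3x2 rats on high salt and 4 on low salt, 4 ET3x1 rats on high salt and 4 on low salt, and 5 S rats on high salt and 5 on low salt. RNA of the left kidney of each rat was measured on 2 Affymetrix chips, RAE230A and RAE230B.

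Array medians lay between 7.48 and 7.52 on RAE230A and between 6.34 and 6.40 on RAE230B (log2). All 5 proximal tubule markers (Slc34a1, Lrp2, Slc5a2, Slc22a6 and Cubn) lay above the chip median, with mean log2 signals from 11.26 to 13.18. Of the podocyte markers, Podxl (9.37) and Synpo (8.72) lay above it and Nphs1 (5.41) below. Of the 5 leukocyte markers, Ptprc (5.48) alone lay below it. The labels do not separate cortex from medulla, and in whole kidney fewer cells of a type and less RNA per cell cannot be told apart.

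Most probe sets of the group were bright enough to test. Of the 11, 8 had a mean above the median of their chip: both for Ndrg1, the second for Hif1a (1387076_at), both for Vegfa (1370081_a_at and 1373807_at), and those for Bnip3 (1387805_at), Slc2a1 (1370848_at) and Ldha (1367586_at). The first Hif1a probe set (1368149_at), Egln3 (1368174_at) and Adm (1387219_at) averaged 7.16, 6.60 and 6.92, below the RAE230A median of 7.51. Their changes come from a fit that kept all probe sets.

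HIF binds DNA at a short core, written ACGTG or GCGTG, and the promoters of 4 members are shown: Ldha and Vegfa, which were called higher with salt, and Bnip3 and Slc2a1, which were not. RefSeq promoter windows (GRCr8, 250 bases before to 50 after the gene start) were matched for 7 of the 8 members, all but Ndrg1. Both cores were searched on both strands and are in capitals. An ACGTG inside CACGTG is also an ACGTG on the other strand and counts as a match on each.
Ldha promoter, GRCr8 chr1:106507842-106508141, plus strand: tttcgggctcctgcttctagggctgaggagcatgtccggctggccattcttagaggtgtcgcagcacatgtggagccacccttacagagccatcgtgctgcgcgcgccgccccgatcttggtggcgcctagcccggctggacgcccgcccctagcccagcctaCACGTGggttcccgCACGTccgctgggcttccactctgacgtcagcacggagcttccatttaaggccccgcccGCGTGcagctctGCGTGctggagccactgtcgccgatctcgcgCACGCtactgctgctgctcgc
Vegfa promoter, GRCr8 chr9:22452604-22452903, plus strand: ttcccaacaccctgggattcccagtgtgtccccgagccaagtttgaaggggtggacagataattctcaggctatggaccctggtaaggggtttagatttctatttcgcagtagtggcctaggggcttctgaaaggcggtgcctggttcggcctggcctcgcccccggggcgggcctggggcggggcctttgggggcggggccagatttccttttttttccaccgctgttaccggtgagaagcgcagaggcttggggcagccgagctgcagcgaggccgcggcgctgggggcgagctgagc
Bnip3 promoter, GRCr8 chr1:203154913-203155212, minus strand: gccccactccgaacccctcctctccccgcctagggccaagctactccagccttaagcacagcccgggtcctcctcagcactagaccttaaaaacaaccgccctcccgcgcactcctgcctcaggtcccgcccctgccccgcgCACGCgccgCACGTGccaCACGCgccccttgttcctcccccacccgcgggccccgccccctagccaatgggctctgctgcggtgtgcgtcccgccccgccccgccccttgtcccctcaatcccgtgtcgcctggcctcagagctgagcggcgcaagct
Slc2a1 promoter, GRCr8 chr5:138002272-138002571, plus strand: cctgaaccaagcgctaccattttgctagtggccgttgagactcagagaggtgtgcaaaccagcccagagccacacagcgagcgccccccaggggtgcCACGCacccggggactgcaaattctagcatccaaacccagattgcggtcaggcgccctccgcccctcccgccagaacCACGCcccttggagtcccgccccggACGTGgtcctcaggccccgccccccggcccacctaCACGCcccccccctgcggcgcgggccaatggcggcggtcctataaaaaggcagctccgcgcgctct

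The Ldha window held 6 matches, 3 of each core. The Bnip3 and Slc2a1 windows held 4 matches each, while the Vegfa window held none, nor did a second RefSeq window for that gene. Hif1a had 3 matches, and Egln3 and Adm had none. A window with at least 1 match was found for 4 of 7 members, against 41.6% of 33469 rat promoter windows. A match is a description of these letters, and its absence says only that they are not in this window.

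The question for diet was how kidney expression differed after 1 day on high salt. Ndrg1 was higher on high salt on both probe sets. Ldha and 1 of the 2 Vegfa probe sets rose, while Bnip3, Slc2a1, Egln3, Adm and Hif1a did not pass the test. NDRG1 is a cytoplasmic protein first described as repressed by N-myc, whose transcript is induced by low oxygen and other stresses in many cell types. Differences are on the log2 scale, high minus low salt, ± the standard error of the limma fit.

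Ndrg1 probe set 2 (1391458_at, RAE230B) read 10.88, 10.00, 10.76 and 10.69 in the ET3x2 rats on high salt, against 9.81, 9.78, 9.46 and 9.62 in those on low salt. The ET3x1 rats read 11.04, 11.16, 11.19 and 11.09 on high salt, against 10.37, 10.08, 9.82 and 10.11 on low salt. The S rats read 10.99, 11.10, 10.78, 10.93 and 10.48 on high salt, against 9.73, 10.14, 10.26, 9.94 and 10.53 on low salt. Every high-salt rat of both congenic strains lay above every low-salt rat of its strain, and in S only the lowest high-salt rat fell below the highest low-salt rat. The difference was 0.92 ± 0.17 in ET3x2, 1.02 ± 0.17 in ET3x1 and 0.74 ± 0.15 in S. Averaged over the strains it was 0.89 ± 0.10, a fold of 1.86.

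**Figure D1:**
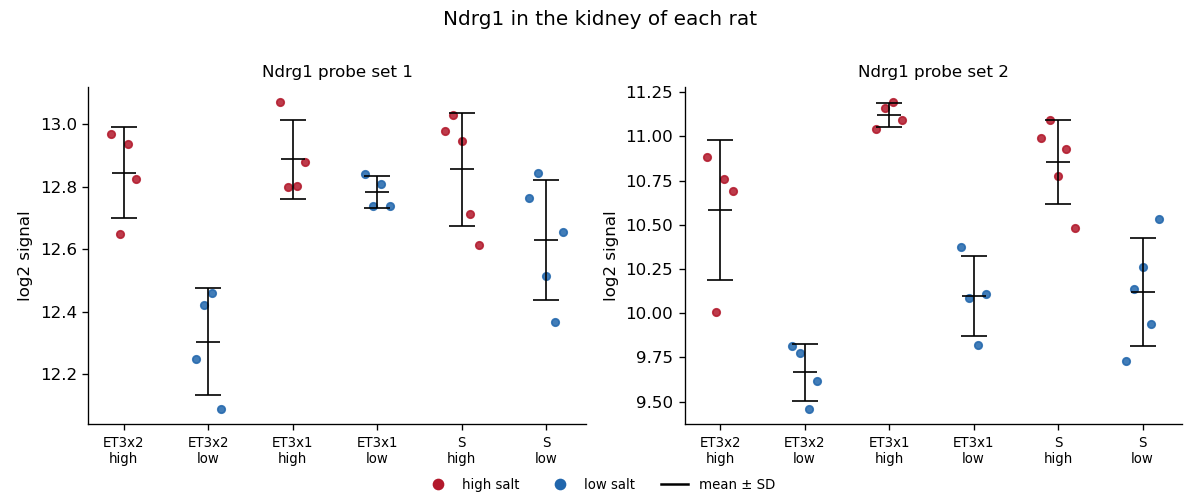
Log2 signal of the 2 Ndrg1 probe sets in each rat (points), by strain and diet, with the mean ± SD of each group (black bars; 4 rats per congenic group, 5 per S group). High-salt rats lie above low-salt rats in all strains for probe set 2 apart from 1 overlap in S, and ET3x2 rats on low salt have the lowest mean on both probe sets.

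Ndrg1 probe set 1 (1371360_at, RAE230A) showed a smaller difference. It read 12.97, 12.65, 12.94 and 12.82 in ET3x2 rats on high salt, against 12.25, 12.42, 12.46 and 12.09 on low salt. In ET3x1 it read 13.07, 12.80, 12.80 and 12.88 on high salt, against 12.84, 12.74, 12.81 and 12.74 on low salt. In S it read 12.98, 13.03, 12.95, 12.71 and 12.61 on high salt, against 12.76, 12.85, 12.52, 12.37 and 12.66 on low salt. The diets separated fully in ET3x2 only, and overlapped in ET3x1 and S. The difference was 0.54 ± 0.10 in ET3x2, 0.11 ± 0.10 in ET3x1 and 0.23 ± 0.09 in S, and averaged 0.29 ± 0.06. The files do not say which part of the transcript each probe set reads.

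The order of the 6 groups was led by the high-salt groups on both Ndrg1 probe sets. On probe set 2 the means ran from 11.12 ± 0.07 (SD) in ET3x1 on high salt, through 10.86 ± 0.24 in S and 10.58 ± 0.39 in ET3x2 on high salt, to 10.12 ± 0.31 in S, 10.10 ± 0.23 in ET3x1 and 9.67 ± 0.16 in ET3x2 on low salt. Neighbouring groups in this order overlapped, except that the ET3x2 rats on low salt, up to 9.81, lay just below the ET3x1 rats on low salt, which began at 9.82. On probe set 1 the high-salt means were 12.85 ± 0.15 in ET3x2, 12.89 ± 0.13 in ET3x1 and 12.86 ± 0.18 in S, and the low-salt means were 12.30 ± 0.17, 12.78 ± 0.05 and 12.63 ± 0.19 in the same strains. The 3 high-salt groups overlapped on that probe set.

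Ldha, the muscle-type subunit of lactate dehydrogenase that turns pyruvate into lactate and a classic HIF target, rose with salt. It read 11.27, 11.16, 11.00 and 11.10 in ET3x2 rats on high salt, against 10.79, 11.03, 10.65 and 10.73 on low salt. ET3x1 rats read 11.22, 11.19, 11.17 and 11.20 on high salt, against 10.87, 10.89, 10.72 and 11.00 on low salt. S rats read 11.26, 11.29, 11.26, 11.09 and 11.05 on high salt, against 10.59, 10.66, 11.01, 10.60 and 11.09 on low salt. The ET3x1 diets did not overlap, and 1 low-salt rat in ET3x2 and 1 in S reached into the high-salt range. Averaged over strains the difference was 0.35 ± 0.06 (limma adjusted p = 1.4e-04). It was 0.33 ± 0.10 in ET3x2 (adjusted p = 0.157), 0.33 ± 0.10 in ET3x1 (adjusted p = 0.0296) and 0.40 ± 0.09 in S (adjusted p = 0.0175). The S call was lost when any 1 of 4 S rats was left out, and the ET3x1 call when any 1 of 6 ET3x1 rats was (adjusted p up to 0.0733 and up to 0.117), while the averaged call held without any single rat.

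Vegfa encodes the growth factor that keeps kidney capillaries in place, made largely by podocytes and tubule cells, and it is a well-known HIF target. Both of its probe sets were higher on high salt when strains were averaged, and only probe set 1 was called. Vegfa probe set 1 read 8.12, 7.81, 8.08 and 7.85 in ET3x2 rats on high salt, against 7.79, 7.83, 8.00 and 7.93 on low salt. In ET3x1 it read 8.04, 8.49, 8.35 and 8.12 on high salt, against 7.82, 7.68, 7.69 and 7.97 on low salt. In S it read 8.02, 8.27, 8.09, 8.45 and 8.18 on high salt, against 7.51, 7.66, 8.03, 7.69 and 8.04 on low salt. High-salt ET3x1 rats all lay above low-salt ones, S rats overlapped through the lowest high-salt rat, and ET3x2 rats were mixed. The averaged difference was 0.32 ± 0.06 (limma adjusted p = 0.00129), with 0.08 ± 0.12 in ET3x2 (adjusted p = 0.873), 0.46 ± 0.12 in ET3x1 (adjusted p = 0.00742) and 0.41 ± 0.10 in S (adjusted p = 0.0282). Leaving out any 1 of 5 S rats took the S call away (adjusted p up to 0.0987). Vegfa probe set 2 differed by 0.16 ± 0.06 and did not pass (adjusted p = 0.0613). It differed by 0.11 ± 0.10 in ET3x2, 0.13 ± 0.10 in ET3x1 and 0.23 ± 0.09 in S, with none called. Its averaged difference was called without the first low-salt ET3x1 rat (adjusted p = 0.0429). The same held without the fourth high-salt or the third low-salt ET3x2 rat (adjusted p = 0.0202 and 0.0136). A difference between the 2 probe sets was not tested.

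**Figure D2:**
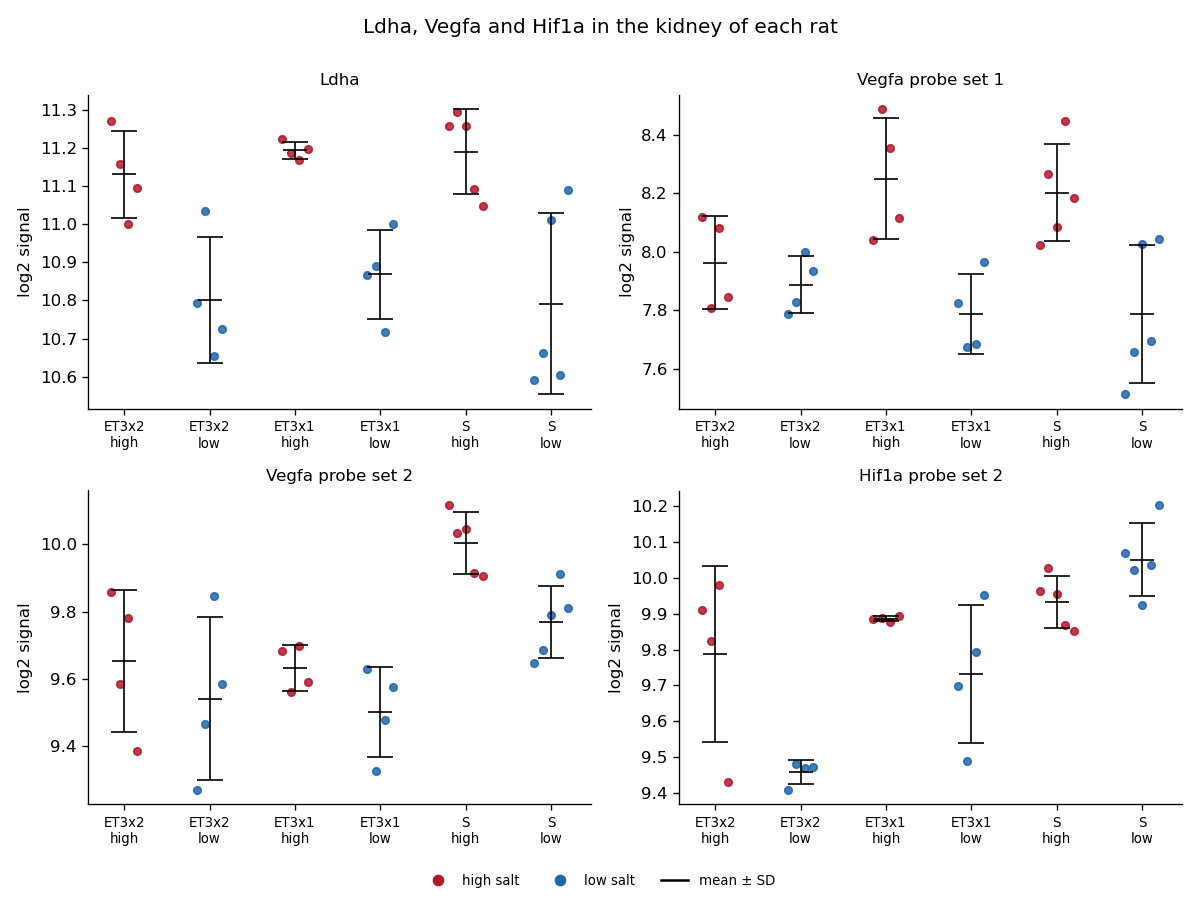
Log2 signal of Ldha, both Vegfa probe sets and the second Hif1a probe set in each rat (points), with group means ± SD (black bars; 4 rats per congenic group, 5 per S group). Ldha is higher on high salt in each strain, and the second Hif1a probe set is lowest in ET3x2 rats on low salt, between 9.41 and 9.48.

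Of the 6 tested probe sets of members other than Ndrg1, 2 rose with salt and 0 fell when strains were averaged, against 14.5% of all tested probe sets called, 9.61% higher and 4.86% lower. In ET3x2, 0 of 6 were called by limma, against 0.304% of all (0.259% higher and 0.0452% lower), and 3 of 6 had an unadjusted p below 0.05, against 11.4% of all. In ET3x1, 2 of 6 rose and 0 fell, against 15.9% (6.98% higher and 8.9% lower). In S, 2 of 6 rose and 0 fell, against 2.78% (2.11% higher and 0.666% lower). With array weights, 4 rose and 1 fell when strains were averaged: Hif1a probe set 2 (0.13, adjusted p = 0.0254) and Vegfa probe set 2 (0.20, adjusted p = 0.00179) were added, and Bnip3 was lower. Calls over all 15473 tested probe sets also rose in that setting, to 4234 from 2239.

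Measures of array and RNA quality moved with diet, and their part in the salt differences was not separated from that of diet. The 3' minus 5' Gapdh control difference on RAE230A averaged 0.747 on high salt and 0.948 on low salt in ET3x2, 0.594 on high and 0.877 on low salt in ET3x1, and 0.812 on high and 0.827 on low salt in S. With it as a covariate, only 25 probe sets were called for salt averaged over strains, against 2239 without it. Ldha then differed by 0.32 ± 0.09 (limma adjusted p = 0.17) and Vegfa probe set 1 by 0.12 ± 0.09 (adjusted p = 0.713), so neither was called. The Ndrg1 differences were 0.32 ± 0.09 on probe set 1 and 0.70 ± 0.15 on probe set 2. With the same difference of beta-actin as the covariate, Ldha was 0.29 ± 0.08 (adjusted p = 0.0397), Vegfa probe set 1 was 0.15 ± 0.08 (adjusted p = 0.291), and Ndrg1 was 0.43 ± 0.07 and 0.68 ± 0.13. In ET3x1, where the quality measures differed most between diets, the difference of Ndrg1 probe set 2 was 0.68 with either covariate, against 1.02 without one, and Ndrg1 probe set 1 was 0.36 ± 0.13 with beta-actin. In ET3x1 the high-salt and low-salt ranges of both quality measures did not overlap on either chip, so there diet and quality cannot be told apart. The same holds for ET3x2 on RAE230B, the chip of Ndrg1 probe set 2. There the Gapdh difference ran from 0.479 to 0.719 on high salt and from 0.733 to 0.815 on low salt. The beta-actin difference ran from 0.458 to 0.601 and from 0.674 to 1.04.

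**Figure D3:**
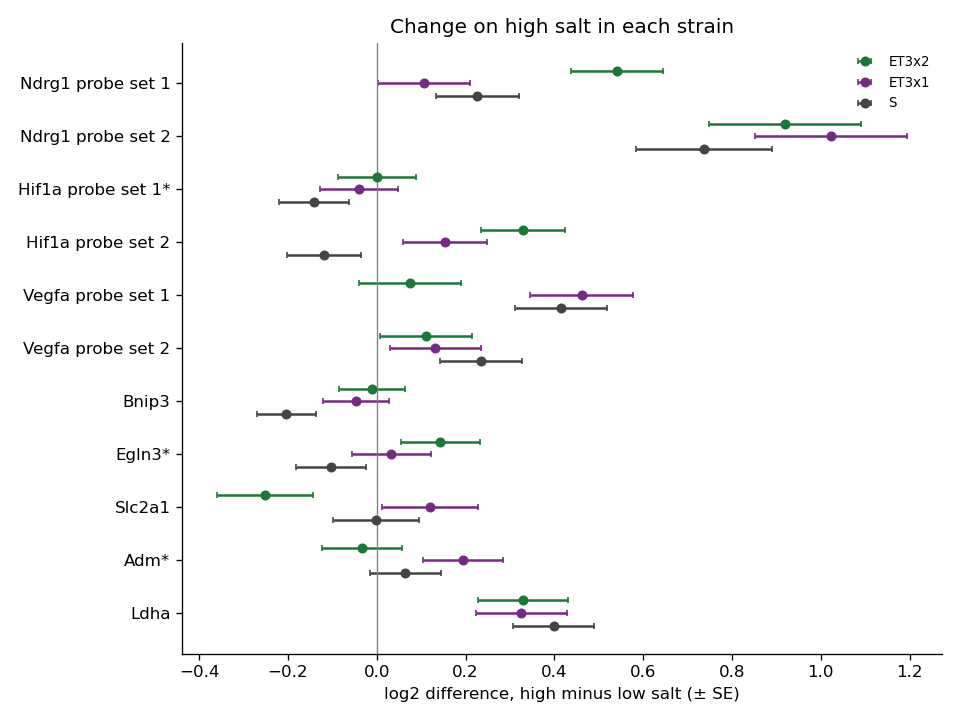
Difference on high salt against low salt for the 11 probe sets, as log2 high minus low salt ± SE of the limma fit, in ET3x2, ET3x1 and S. Asterisks mark probe sets below the chip median, whose values come from a fit without that filter. Ndrg1 probe set 2 is largest in every strain, from 0.74 in S to 1.02 in ET3x1. Ndrg1 was selected on its signals in these same rats, so its rank is only a description.

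The other members showed small differences. Hif1a, the oxygen-regulated subunit of HIF-1, averaged 9.79 ± 0.25 on high salt and 9.46 ± 0.03 on low salt in ET3x2, 9.89 ± 0.01 on high and 9.73 ± 0.19 on low salt in ET3x1, and 9.93 ± 0.07 on high and 10.05 ± 0.10 on low salt in S (SD, probe set 2). The averaged difference was 0.12 ± 0.05 (limma adjusted p = 0.121). In ET3x2 it was 0.33 ± 0.09 (adjusted p = 0.134), and without the fourth high-salt ET3x2 rat, which read 9.43 beside 9.91, 9.82 and 9.98, it was 0.45 (adjusted p = 0.006). BNIP3, a mitochondrial protein that triggers removal of mitochondria by autophagy, ranged from 10.13 to 10.51 over all rats and differed by -0.09 ± 0.04 (adjusted p = 0.166). It was called lower with quantile normalization (-0.14, adjusted p = 0.0326; in S -0.31, adjusted p = 0.0184) and with array weights (-0.10, adjusted p = 0.0458; in S -0.26, adjusted p = 0.00985). SLC2A1 (GLUT1), the basal glucose transporter, differed by -0.04 ± 0.06 (adjusted p = 0.675), and without the same ET3x2 rat, the highest of its group at 9.70, its difference in ET3x2 was -0.38 (adjusted p = 0.0363) in place of -0.25 ± 0.11 (adjusted p = 0.362). The check for far rats described below did not flag this rat for Hif1a or Slc2a1. The reported fits kept all rats, flagged or not. Egln3, a HIF prolyl hydroxylase itself induced by HIF, ranged from 6.26 to 6.89 and differed by 0.02 ± 0.05 (adjusted p = 0.814). Adm, which encodes the vasodilator adrenomedullin, ranged from 6.63 to 7.19 and differed by 0.07 ± 0.05 (adjusted p = 0.387).

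**Figure D4:**
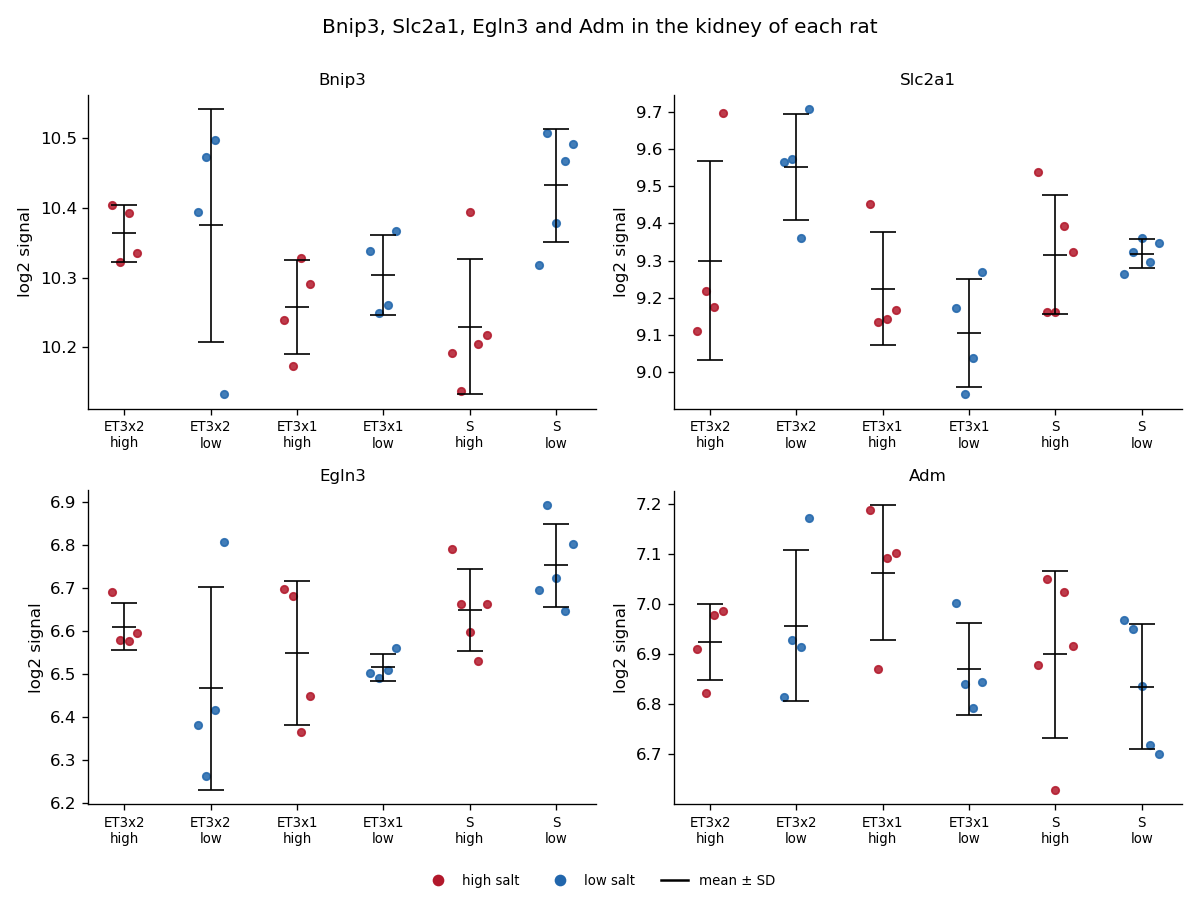
Log2 signal of Bnip3, Slc2a1, Egln3 and Adm in each rat (points), with group means ± SD (black bars; 4 rats per congenic group, 5 per S group). High-salt and low-salt rats overlap in every strain for these 4 genes, and Egln3 and Adm lie below the chip median of 7.51.

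The salt differences of the strains were also set against each other. Of the 6 tested probe sets, 0 were called by limma for the salt response of ET3x2 minus that of S, of ET3x1 minus that of S, or of ET3x2 minus that of ET3x1, against 0.0194% (0.00646% higher and 0.0129% lower), 5.49% (1.42% and 4.08%) and 0.304% (0.123% and 0.181%) of all probe sets. At an unadjusted p below 0.05 the counts were 2, 1 and 2 of 6, against 8.98%, 22.8% and 14.9% of all probe sets. The largest such difference was that of Hif1a probe set 2, 0.45 ± 0.13 between ET3x2 and S (adjusted p = 0.218), and without the fourth high-salt ET3x2 rat it was 0.57 (adjusted p = 0.024).

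The strain comparisons ask which genes differ in the congenic kidneys. Averaged over diets, Hif1a and Vegfa were called lower in both congenic strains than in S, each on 1 of its 2 probe sets. Of all tested probe sets, 28.5% were called for ET3x2 minus S (14% lower) and 32.3% for ET3x1 minus S (16% lower). The Hif1a difference was called on low salt and not on high salt. The ET3x2 and ET3x1 comparisons share the same S rats, so they are not independent of each other. Quality also differed between strains on RAE230A. On high salt the Gapdh difference ran from 0.556 to 0.612 in ET3x1 and from 0.735 to 0.873 in S. On low salt the difference between bioD and bioC hybridization spike-ins ran from 2.14 to 2.46 in ET3x2 and from 2.69 to 2.95 in S. On high salt it ran from 2.95 to 3.29 in ET3x1 and from 1.55 to 2.94 in S. The remaining ranges of both measures overlapped S. Where ranges did not overlap, strain and quality cannot be told apart.

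On low salt, Hif1a probe set 2 read 9.41, 9.48, 9.47 and 9.47 in ET3x2 and 9.70, 9.49, 9.79 and 9.95 in ET3x1, against 10.07, 10.02, 9.92, 10.04 and 10.20 in S. All ET3x2 rats lay below all S rats, and ET3x1 rats overlapped S through their highest rat. On low salt the difference was -0.59 ± 0.09 for ET3x2 minus S (limma adjusted p = 1.6e-04) and -0.32 ± 0.09 for ET3x1 minus S (adjusted p = 0.0107). On high salt it was -0.15 ± 0.09 (adjusted p = 0.351) and -0.05 ± 0.09 (adjusted p = 0.769). Averaged over diets it was -0.37 ± 0.06 for ET3x2 minus S (adjusted p = 2.3e-04) and -0.18 ± 0.06 for ET3x1 minus S (adjusted p = 0.0284). The ET3x1 calls on low salt and averaged were lost without the second low-salt ET3x1 rat (adjusted p = 0.0716 and 0.0853), and the averaged one also with array medians centred (adjusted p = 0.0521) and with the beta-actin covariate (adjusted p = 0.0603). The ET3x2 calls held in every setting run, and the dim Hif1a probe set 1 differed by -0.05 ± 0.06 for ET3x2 and -0.08 ± 0.06 for ET3x1 with neither called.

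Vegfa probe set 2 read 9.86, 9.59, 9.78 and 9.39 in ET3x2 and 9.68, 9.56, 9.70 and 9.59 in ET3x1 rats on high salt, against 10.12, 10.03, 10.05, 9.91 and 9.91 in S. On low salt it read 9.27, 9.47, 9.85 and 9.59 in ET3x2 and 9.63, 9.33, 9.48 and 9.58 in ET3x1, against 9.65, 9.69, 9.79, 9.91 and 9.81 in S. All rats of both congenic strains lay below all S rats on high salt, as did ET3x1 rats on low salt, while 1 ET3x2 rat on low salt reached into the S range. Averaged over diets the difference was -0.29 ± 0.07 for ET3x2 (limma adjusted p = 0.00349) and -0.32 ± 0.07 for ET3x1 (adjusted p = 0.00131), both held in every setting run and without any single rat. On high salt alone it was -0.35 ± 0.10 for ET3x2 (adjusted p = 0.0401) and -0.37 ± 0.10 for ET3x1 (adjusted p = 0.0132), and on low salt -0.23 ± 0.10 (adjusted p = 0.103) and -0.27 ± 0.10 (adjusted p = 0.0429). The ET3x2 call on high salt was lost without any 1 of 5 rats and, with the difference between the bioD and bioC hybridization spike-ins as a covariate, missed the threshold (adjusted p = 0.0569). The ET3x1 call on high salt missed it with that covariate (adjusted p = 0.0741) and with beta-actin (adjusted p = 0.0533), and the ET3x1 call on low salt without any 1 of 6 rats. Vegfa probe set 1 differed by -0.07 ± 0.08 and 0.02 ± 0.08 with neither called. The podocyte marker mean was 7.60 and 7.85 in ET3x2 and 7.48 and 7.68 in ET3x1 on high and low salt, against 8.11 and 8.13 in S. The endothelial mean was 8.91 and 8.93 in ET3x2 and 8.82 and 9.00 in ET3x1, against 9.17 and 9.17 in S. Its members did not move alike: Kdr averaged 9.31 and 9.24 in ET3x2 and 9.20 and 9.38 in ET3x1, against 9.88 and 9.88 in S, while Pecam1 averaged 7.70 and 7.89 in ET3x2 and 7.72 and 7.97 in ET3x1, against 7.77 and 7.82 in S. The part of these markers in the Vegfa difference was not tested.

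**Figure D5:**
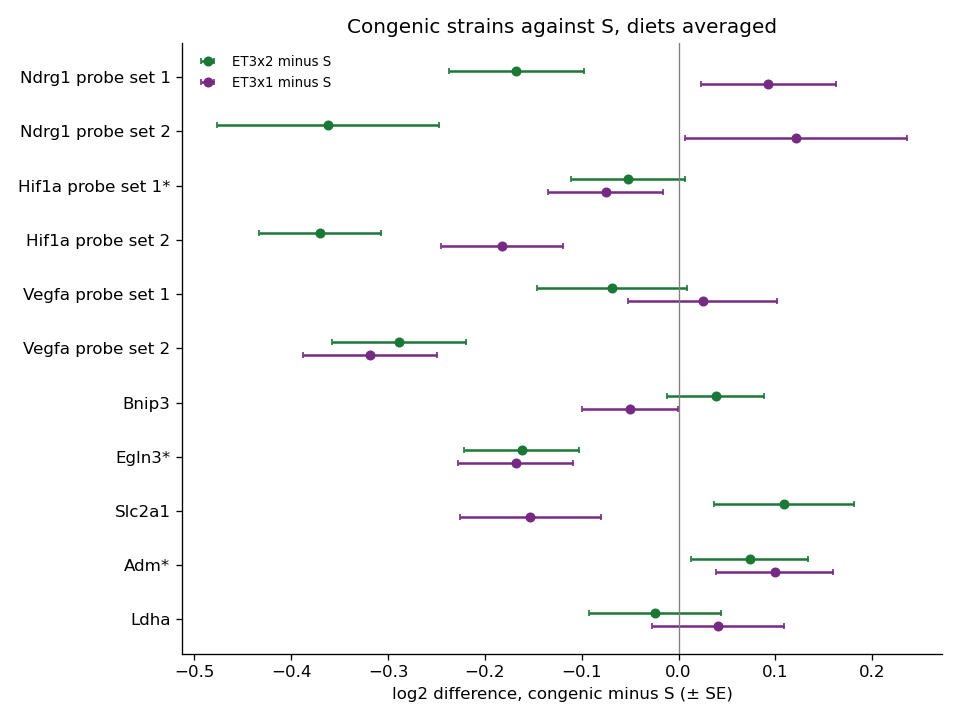
Difference of each congenic strain from S, averaged over diets, as log2 congenic minus S ± SE of the limma fit, for the 11 probe sets. Asterisks mark probe sets below the chip median, from a fit without that filter. Hif1a probe set 2 and Vegfa probe set 2 lie below 0 in both strains, while Ndrg1 lies below 0 in ET3x2 and above it in ET3x1.

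Of the 6 tested probe sets, 0 were higher and 2 lower in ET3x2 than in S, against 28.5% of all probe sets called (14.6% higher and 14% lower). The same probe sets were the 2 lower in ET3x1 than in S, with 0 higher, against 32.3% (16.3% higher and 16% lower). On low salt the counts called lower were 1 for ET3x2 and 2 for ET3x1, with 0 higher, against 18.2% (9.49% higher and 8.71% lower) and 26.8% (16.7% higher and 10.1% lower). On high salt 1 was lower in each, with 0 higher, against 4.25% (1.28% higher and 2.97% lower) and 14.5% (4.89% higher and 9.63% lower). Egln3, from the fit without the filter, was -0.16 ± 0.06 in ET3x2 (limma adjusted p = 0.0452) and -0.17 ± 0.06 in ET3x1 (adjusted p = 0.0321), and these calls were lost when any 1 of 14 rats and any 1 of 6 rats was left out. ET3x2 and ET3x1 differed for 1 of 6 probe sets, against 11.1% of all (6% higher and 5.14% lower). That was Slc2a1, which read 9.11, 9.22, 9.18 and 9.70 in ET3x2 on high salt and 9.56, 9.57, 9.36 and 9.71 on low salt, against 9.45, 9.13, 9.14 and 9.17 in ET3x1 on high salt and 9.17, 8.94, 9.04 and 9.27 on low salt. The strains overlapped on high salt and did not on low salt. It was 0.26 ± 0.08 higher in ET3x2 (adjusted p = 0.0291), but not with the Gapdh covariate (adjusted p = 0.0558) or the spike-in covariate (adjusted p = 0.108), nor when any 1 of 5 rats was left out. Ndrg1 differed by -0.17 ± 0.07 and -0.36 ± 0.11 for ET3x2 minus S, by 0.09 ± 0.07 and 0.12 ± 0.11 for ET3x1 minus S, and by -0.26 ± 0.07 and -0.48 ± 0.12 for ET3x2 minus ET3x1, on probe sets 1 and 2.

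Other genes of the pathway were counted by their probe set of smallest p. For all 8825 tested genes counted that way, 18.8% were called for salt averaged over strains (13% higher and 5.79% lower), 34.8% for ET3x2 minus S (19.8% and 15.1%), 36.5% for ET3x1 minus S (21.2% and 15.3%) and 12.6% for ET3x2 minus ET3x1 (6.3% and 6.33%). The lists hold the HIF system, glycolysis and glucose genes, other HIF targets, NDRG relatives, and partners of adrenomedullin and VEGF.

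With salt, 0 of 12 HIF system genes were called by limma (2 at an unadjusted p below 0.05, median difference 0.03, against 0.00 over all probe sets). In glycolysis, 2 of 15 rose and 0 fell (median 0.10): Pgk1, which makes ATP in glycolysis, by 0.20 ± 0.04 on 1 of 2 probe sets (0.11 ± 0.05 on the other, not called), and Ldhb, the partner subunit of Ldha, by 0.20 ± 0.04. Of 20 other HIF targets, 4 rose and 4 fell (median 0.03). Those that rose were Cxcl12, a chemokine, by 0.75 ± 0.14 on 1 of 3 probe sets (-0.00 and 0.07 on the others), Tfrc, the transferrin receptor, by 0.70 ± 0.10, Car12, a carbonic anhydrase, by 0.35 ± 0.08, and Mxi1, a MYC antagonist, by 0.30 ± 0.05. The 4 that fell were added after their values were seen: Hmox1, heme oxygenase-1, at -0.23 ± 0.07, Bnip3l, the relative of Bnip3, at -0.18 ± 0.04 on 1 of 2 probe sets, Ankrd37 at -0.16 ± 0.05 and Ero1a, an oxidase of protein folding, at -0.15 ± 0.04 on 1 of 2 probe sets. None of the 3 NDRG relatives was called (1 at an unadjusted p below 0.05), and of 4 partners tested 1 fell, Nrp1, a VEGF co-receptor, at -0.28 ± 0.09 on 1 of 2 probe sets (0.14 on the other). Of these 11 genes, 0 kept the call with the Gapdh covariate, 3 with beta-actin (Ldhb, Tfrc and Bnip3l) and 11 with the spike-in covariate.

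Between ET3x2 and S, 4 of 12 HIF system genes fell and 0 rose (median -0.08, against 0.01 over all probe sets). They were Epas1, the alpha subunit of HIF-2, at -0.40 ± 0.07 on 1 of 2 probe sets, and the coactivators and regulators Cited2 (-0.29 ± 0.08, with 0.11 ± 0.11 on its other probe set), Ep300 (-0.23 ± 0.08) and Crebbp (-0.17 ± 0.04). In glycolysis 3 of 15 rose, Gpi (0.33 ± 0.12), Aldoa (0.29 ± 0.07) and Hk1 (0.18 ± 0.05, with -0.00 ± 0.07 on its other probe set), and 1 fell, Pgam1 (-0.14 ± 0.05). Of 20 other targets 5 rose and 4 fell (median -0.01), the largest being Cxcl12 (-0.27 ± 0.07), Pnrc1 (-0.27 ± 0.10), Ddit4 (0.25 ± 0.09) and Ero1a (0.23 ± 0.05, with -0.04 ± 0.04 on its other probe set). Of 4 partners 2 fell: the VEGF receptor gene Kdr at -0.60 ± 0.07 and Nrp1 at -0.65 ± 0.09 on 1 of 2 probe sets, the other reading 0.01 ± 0.10. Ndrg2, an NDRG relative, was 0.24 ± 0.05 higher.

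Between ET3x1 and S, 2 of 12 HIF system genes rose and 2 fell. Epas1 was lower at -0.22 ± 0.07 and Crebbp at -0.27 ± 0.04, each on 1 of 2 probe sets (-0.10 ± 0.08 and -0.15 ± 0.07 on the others, not called), while Elob, part of the complex that marks HIF-alpha for destruction, rose by 0.32 ± 0.10. Cited2 rose by 0.35 ± 0.11 on the probe set not called for ET3x2, and its other probe set read -0.18 ± 0.08. In glycolysis 7 of 15 rose and 0 fell (median 0.17, against 0.00 over all probe sets), with Aldoa at 0.39 ± 0.07, Gpi at 0.39 ± 0.12, Tpi1 at 0.38 ± 0.07 and Mif at 0.38 ± 0.13. With the Gapdh covariate 3 of the 7 kept the call, Aldoa, Tpi1 and Hk1, and Gpi (adjusted p = 0.0841) and Mif (adjusted p = 0.129) did not. Of 20 other targets 1 rose and 3 fell, led by Bhlhe40, a clock-linked repressor, at -0.61 ± 0.16, with Kdm3a at -0.27 ± 0.05, Cxcl12 at -0.21 ± 0.07 and Jmjd6 at 0.14 ± 0.05. Cxcl12 was called on 1 of 3 probe sets, and the others read -0.01 ± 0.07 and -0.28 ± 0.17. Of 3 NDRG relatives, Ndrg4 was lower at -0.21 ± 0.06 and Ndrg2 higher at 0.14 ± 0.05. Kdr differed by -0.58 ± 0.07 and Nrp1 by -0.32 ± 0.09 (-0.28 ± 0.10 on its other probe set), and Vegfb (0.34 ± 0.11) and Ramp2 (0.23 ± 0.07), a subunit of the adrenomedullin receptor, rose. With the Gapdh covariate 15 of the 21 called genes kept the call, and for ET3x2 minus S 18 of 20 did. Kdr is itself on the endothelial marker list, whose means are given with Vegfa above.

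Between ET3x2 and ET3x1, 1 of 12 HIF system genes was higher, Arnt2 (0.22 ± 0.07), a partner of HIF-alpha, and 1 was lower, Egln1 (-0.17 ± 0.05), the main HIF prolyl hydroxylase, on 1 of 2 probe sets (0.00 ± 0.05 on the other). Of 15 glycolysis genes 0 rose and 3 fell: Tpi1 (-0.24 ± 0.07), Pgk1 (-0.22 ± 0.06, with 0.04 ± 0.06 on its other probe set) and Pgam1 (-0.17 ± 0.05). Of 20 other targets 3 rose and 2 fell, led by Pnrc1 (-0.46 ± 0.10), Ddit4 (0.40 ± 0.09), Ankrd37 (0.28 ± 0.07) and Ero1a (0.25 ± 0.05, with 0.06 ± 0.05 on its other probe set). Nrp1, the 1 partner called, was lower at -0.34 ± 0.09, with 0.29 ± 0.11 on its other probe set. Of these 11 calls, 2 (Pgk1 and Ddit4) were kept with the Gapdh covariate, 5 with the spike-in covariate and 11 with beta-actin. For the salt response of ET3x1 minus that of S, 4 of the 54 genes tested on the lists were called (7.41%), Mxi1 higher and P4ha1, Ddit4 and Nrp1 lower, against 7.51% of all genes (1.7% higher and 5.81% lower). For that of ET3x2 minus that of ET3x1, 1 of 54 was called (1.85%), Mxi1, which was lower, against 0.442% (0.17% higher and 0.272% lower). These Mxi1 and Nrp1 calls each rest on 1 of 2 tested probe sets, that of smallest p.

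The genes whose pattern was most like Ndrg1 probe set 1 were ranked by Pearson correlation over the 26 rats, among 6787 tested single-gene probe sets of the same chip (median r 0.03). They were Ldhb (r = 0.88, rho = 0.80), Atp5f1c (r = 0.83, rho = 0.78), Actg1 (r = 0.83, rho = 0.71), Cyp2c23 (r = 0.83, rho = 0.83) and Ndufc2 (r = 0.81, rho = 0.80). After group means were subtracted the highest were Atp5f1c (0.78), Ldhb (0.78), Arl15 (0.77), Ggta1 (0.76) and Podxl (0.76), and Actg1 stood at 0.53. Before that step Arl15 had r of 0.51, Ggta1 0.71 and Podxl -0.05 over the 26 rats. Each pair of values comes from the same array of a rat, so shared array quality enters these r values and no p is given. Among the members, Ndrg1 probe set 2 was closest to Ldha (r = 0.83, rho = 0.82, and 0.57 after subtracting group means) and to Vegfa probe set 1 (r = 0.74, rho = 0.78, and 0.51), read on the other chip from the same kidney. It stood at -0.42 with the dim Hif1a probe set 1, and at -0.61 after subtracting group means. With the brighter Hif1a probe set 2 it stood at 0.44, and at 0.11 after subtracting group means. Ndrg1 probe set 1 had r of 0.57 with Ldha and 0.27 with Vegfa probe set 1, and 0.17 and -0.21 after subtracting group means. The 2 Ndrg1 probe sets had r of 0.72 with each other, and 0.32 after subtracting group means.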

How the data were processed

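The samples were left kidneys of 26 male rats in 6 strain and diet groups, 1 rat per RAE230A and RAE230B array pair. The deposited values are log2 signals; the method of summary and normalization is not given in the sources used here. For arrays, their number limits the precision. The 57 control probe sets per chip were left out of the tests, as were those averaging less than the chip median (7.51 and 6.38), and 100 maintenance probe sets that both chips carry were kept on RAE230A, which left 15473.

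Each chip was fitted with limma 3.58.1 in R 4.3.3, with a coefficient per group (6), eBayes with its trend option, and 20 residual degrees of freedom. Tests were two-sided, with Benjamini-Hochberg adjustment over both chips together and calls at an adjusted p below 0.05. Symbols came from the platform annotation, updated by Entrez identifier to GRCr8. All members and every probe set of each are named; from each list, called genes with the largest changes, up to 4 per comparison; and 5 genes by likeness to Ndrg1. Members and lists were chosen with earlier results of these data known. The fit recovered the larger of the known changes added to ET3x2 rats in simulated data. That simulation had independent noise and no diet or quality differences, so it cannot show how quality affects the salt calls. Alternatives were other normalizations, filters, eBayes and adjustment settings, array weights, covariates and leaving out rats; the beta-actin covariate was added after the data were seen. Labels give no litter or batch. The p-values set each difference against the pooled spread of rats within groups, with rats taken as independent.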

Additional observations from a re-analysis of the deposited data

Results flagged for a closer look

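Among the 66 sets of 4 or 5 rats checked for a rat far from the others, 3 had one, and chance flags about 1 in 20. In Hif1a probe set 2, the first ET3x2 rat on low salt read 9.41, below the others at 9.47 to 9.48. In Egln3 the first ET3x2 rat on high salt read 6.69, above 6.60 and lower. In Slc2a1 the first ET3x1 rat on high salt read 9.45, above 9.17 and lower.

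Salt differences between strains were called by limma for 4 of 54 list genes, 7.41%, against 7.51% of all genes for the salt response of ET3x1 minus that of S. Mxi1 differed by 0.79 ± 0.13 between ET3x1 and S (adjusted p = 7.4e-04), with 0.79 ± 0.09 in ET3x1 and -0.00 ± 0.08 in S, and by -0.68 ± 0.13 between ET3x2 and ET3x1 (adjusted p = 0.0305), with 0.10 ± 0.09 in ET3x2. P4ha1, a collagen prolyl hydroxylase subunit, differed by -0.67 ± 0.17 between ET3x1 and S (adjusted p = 0.0198), with -0.45 ± 0.12 in ET3x1 and 0.22 ± 0.11 in S. Ddit4, an inhibitor of mTOR, differed by -0.57 ± 0.17 (adjusted p = 0.04998), with -0.20 ± 0.13 in ET3x1 and 0.37 ± 0.11 in S, and lost the call without any 1 of 19 rats. Nrp1 differed by -0.91 ± 0.21 (adjusted p = 0.0135) on 1 of its 2 tested probe sets, with -0.83 ± 0.15 in ET3x1 and 0.08 ± 0.14 in S. Averaged over strains, the salt difference of the other Nrp1 probe set was 0.14 ± 0.07 and was not called. The Mxi1 values also come from 1 of 2 tested probe sets, that of smallest p. The P4ha1 call was lost without the third ET3x1 rat on low salt, the Mxi1 call between ET3x2 and ET3x1 without any 1 of 9 rats, and none of these calls remained with the Gapdh covariate.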

How the results depend on the processing

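No paired analysis was possible because the labels name separate rats and replicate numbers were given in accession order. Of 2717 tests of single genes under settings other than leaving out rats, 214 lost a call, 19 gained one and 2484 stayed on their side of the threshold. The sign turned in 70 of these tests, all uncalled in the setting reported. Of 306 Ndrg1 values, 299 stayed within 1 SD and 7 did not, and 12 turned sign. The count of called probe sets among the 6 moved by setting. With quantile normalization it was 4 for ET3x1 minus S on low salt. With array medians centred it was 1 for ET3x1 minus S averaged, 2 for ET3x2 minus ET3x1 and 1 for ET3x1 minus S on low salt. On the brightest 25%, which leaves Vegfa probe set 1 untested, it was 1 of 5 for salt averaged, in S and in ET3x1. With array weights it was 2 for ET3x2 minus ET3x1, 5 for salt averaged (4 higher, 1 lower), 2 for salt in ET3x2, 3 for ET3x2 minus S on low salt, and 1 for the salt response of ET3x2 against that of S and of ET3x1. With the Gapdh covariate it was 0 for ET3x2 minus ET3x1, for salt averaged and for salt in ET3x1, and 1 for ET3x1 minus S on low salt. With the spike-in covariate it was 0 for ET3x2 minus ET3x1, and for ET3x2 and ET3x1 minus S on high salt, and 1 for salt in S, salt in ET3x1 and ET3x1 minus S on low salt. With the compared strains alone it was 0 for ET3x2 minus S on high salt and for salt in S. With the beta-actin covariate it was 1 for ET3x1 minus S averaged and for salt averaged, and 0 for salt in S, salt in ET3x1 and ET3x1 minus S on high salt. Without 1 rat at a time it ran from 2 to 4 for salt averaged, 0 to 3 in S, 1 to 2 in ET3x1, 0 to 2 in ET3x2, 2 to 2 for ET3x2 minus S averaged, 1 to 3 for ET3x1 minus S averaged, 0 to 2 for ET3x2 minus ET3x1, 1 to 3 and 0 to 1 for ET3x2 minus S on low and high salt, 0 to 2 and 1 to 1 for ET3x1 minus S on low and high salt, and 0 to 1 for the salt response of ET3x2 minus that of S. Over all probe sets, calls for salt averaged numbered 25 with the Gapdh covariate, 466 with beta-actin and 4234 with array weights, against 2239, and calls for ET3x2 minus S numbered 7702 without a filter, against 4415. Calls for salt in ET3x2 numbered 1140 with array weights, against 47. Calls for the salt response of ET3x2 against that of S and of ET3x1 numbered 416 and 1626 with array weights. Without the weights they numbered 3 and 47. Calls for salt in ET3x1 numbered 6 with the Gapdh covariate, against 2457. Whether the covariates or the diet account for the lost salt calls was not tested. Dim probe sets limit Egln3, Adm and Hif1a probe set 1.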
